A study of Mus musculus with 6 samples.

Results

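The granule protein genes of neutrophil progenitors were examined in sorted stem and progenitor cells of the mouse. They are 10 genes out of the 18193 that the arrays measured under a single symbol, namely the primary granule genes Mpo, Elane, Prtn3 and Ctsg, the secondary granule genes Ltf, Camp, Ngp and Lcn2, and Ms4a3 and Fcnb. They were taken by name, as the probe sets annotated to exactly 1 of these symbols. All 10 had such a probe set and none had another. RNA came from LKS+ cells, bone marrow cells that lack mature-lineage markers, carry c-Kit at a high level and carry Sca-1. There were 3 arrays from Apcmin mice and 3 from wild-type (WT) mice. Each array was counted as a separate mouse. The labels give cell numbers per mouse but do not name the animals, so this is an assumption. Apcmin is a germline allele of the tumour suppressor gene Apc (Min), so it is present in every tissue of these mice and not in blood cells alone, and WT mice lack it. Strain, sex, age and zygosity are not stated in the labels. By its title the study concerns MPD/MDS, that is, myeloproliferative and myelodysplastic disease, so the comparison asks whether the granulocytic programme differs in its stem and progenitor cells.

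Neutrophils make their granules in a fixed order as they mature in the marrow. Primary (azurophil) granules form first, in promyelocytes, and hold myeloperoxidase and the serine proteases, whose genes are already transcribed in granulocyte and monocyte progenitors. Secondary (specific) granules form in myelocytes, after those genes are shut off, and hold lactoferrin, cathelicidin and lipocalin. Expression of the secondary group in mice requires the transcription factor C/EBP-epsilon.

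Intensities are given as log2 of the authors' normalized value of a probe set. Levels of different probe sets are not comparable, so each gene was compared with itself across arrays. Mean log2 intensity was 6 or more for all 10 genes, against 8658 of 18193 genes. The labels put sort purity above 90%. Kit, which encodes the sorted c-Kit receptor, was at 9.87 ± 0.18 in Apcmin and 9.79 ± 0.18 in WT (SD, n = 3 each). All 9 measured LKS+ markers had a mean of at least 6, Cd34 (10.94 ± 0.11 in Apcmin and 10.94 ± 0.05 in WT) and Flt3 (10.06 ± 0.17 in Apcmin and 10.01 ± 0.29 in WT) among them. None of the 5 measured B and T cell markers and none of the 3 eosinophil markers reached that mean. It was reached by 5 of 8 monocyte and macrophage and 3 of 7 mature neutrophil markers. So it was by 2 of 5 erythroid, 3 of 5 megakaryocyte and 2 of 4 mast cell and basophil markers. In bulk RNA, fewer cells of a type and less RNA per cell cannot be told apart.

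The primary granule genes hardly differed among the 6 arrays. Mpo, the heme peroxidase that makes hypochlorous acid, was at 12.26, 12.11 and 12.16 in Apcmin replicates 1 to 3, against 12.21, 12.09 and 12.18 in WT replicates 1 to 3. The ranges overlapped, and the difference was 0.018 with a 95% confidence interval from -0.30 to 0.34. Prtn3, the gene for proteinase 3, was at 11.49, 11.41 and 11.47 in Apcmin and at 11.53, 11.33 and 11.52 in WT. Its 3 Apcmin values lay inside the WT range, and the interval of the difference ran from -0.33 to 0.33.

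Ctsg, the gene for cathepsin G, was at 11.85, 11.72 and 11.79 in Apcmin, against 11.96, 11.79 and 11.86 in WT. The groups overlapped, with the highest value in WT replicate 1 and the lowest in Apcmin replicate 2 (difference -0.087, interval from -0.41 to 0.23). Elane, the gene for neutrophil elastase, was at 10.90, 10.60 and 10.80 in Apcmin, against 10.93, 10.91 and 10.84 in WT. Apcmin replicates 2 and 3 lay below all WT values and Apcmin replicate 1 among them, which gave a difference of -0.13 (interval from -0.47 to 0.22). The highest array exceeded the lowest by 1.13-fold for Mpo, 1.15-fold for Prtn3, 1.18-fold for Ctsg and 1.25-fold for Elane.

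Ms4a3 and Fcnb were kept apart from both groups. Ms4a3 encodes a tetraspan membrane protein that marks granulocyte and monocyte progenitors in mice, and it was at 10.56, 10.28 and 10.47 in Apcmin, against 10.62, 10.53 and 10.61 in WT. Apcmin replicate 1 lay inside the WT range and the other Apcmin mice below it (difference -0.15, interval from -0.49 to 0.19). Fcnb encodes ficolin B, a lectin of myeloid cells that recognizes microbial sugars. It was at 7.54, 6.57 and 6.93 in Apcmin, against 7.56, 7.22 and 7.22 in WT. Again only Apcmin replicate 1 fell within the WT values, and the difference was -0.32 (interval from -0.95 to 0.31), the most negative of the 10. Apcmin replicate 2 was the lowest array for Elane, Ctsg, Ms4a3 and Fcnb. Without it the Fcnb difference was -0.099, and without Apcmin replicate 1 it was -0.58 (limma, unadjusted p = 0.035), so its size depended on single arrays.

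**Figure D1:**
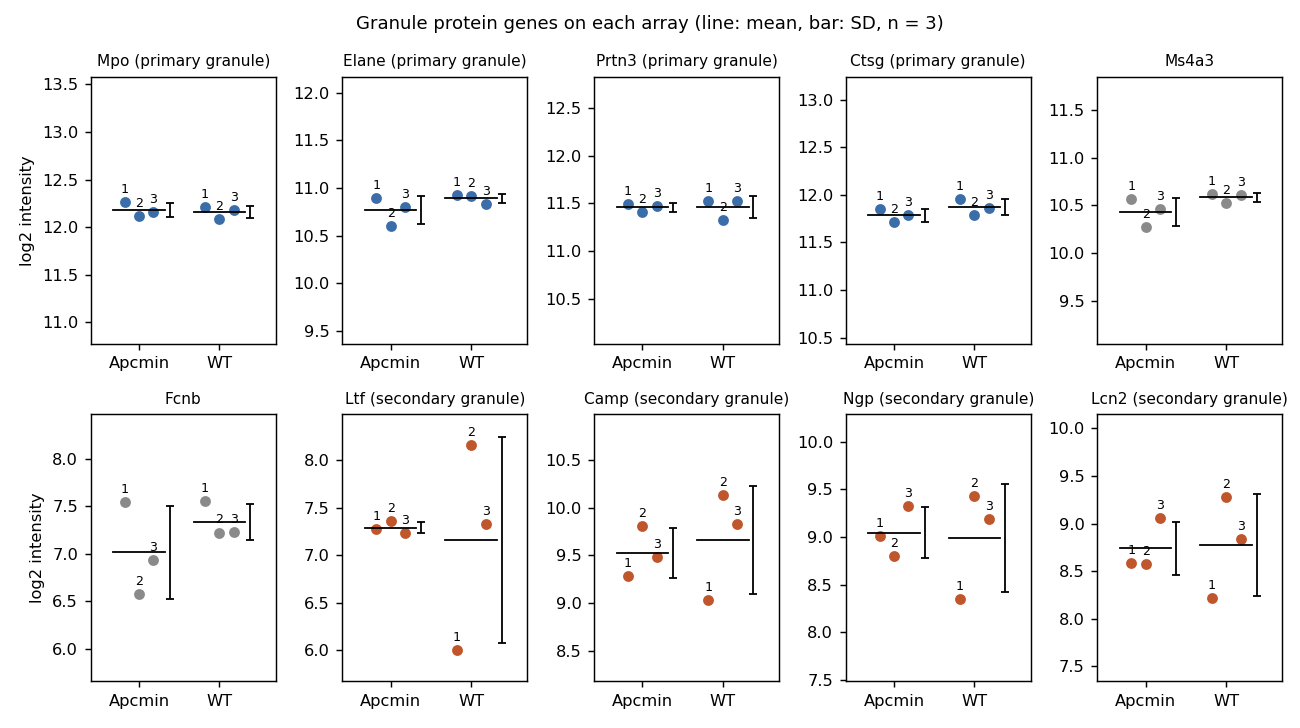
Log2 intensity of each gene on each array, with Apcmin left of WT and the replicate number above each point. Horizontal lines are means and bars are SD (n = 3), and every panel spans the same 2.8 log2 units. The primary genes are tight in both genotypes, while the secondary genes spread widely in WT, from 6.01 to 8.15 for Ltf.

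The secondary granule genes varied from 2.08-fold to 4.44-fold over the arrays, with both ends of the range among WT mice. Ltf, the gene for the iron-binding protein lactoferrin, was at 7.27, 7.36 and 7.24 in Apcmin replicates 1 to 3, against 6.01, 8.15 and 7.33 in WT replicates 1 to 3. The Apcmin values were close together and lay inside the WT range, whose ends were WT replicates 1 and 2. Camp, the gene for the cathelicidin antimicrobial peptide, was at 9.28, 9.81 and 9.48 in Apcmin, against 9.03, 10.13 and 9.83 in WT. The same WT arrays were again lowest and highest.

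Ngp, which encodes neutrophilic granule protein, a relative of the cathelicidins, was at 9.01, 8.80 and 9.33 in Apcmin, against 8.34, 9.43 and 9.19 in WT. Lcn2, whose lipocalin product binds bacterial siderophores, was at 8.59, 8.57 and 9.06 in Apcmin, against 8.22, 9.28 and 8.84 in WT. For both genes the 3 Apcmin values lay between WT replicate 1, the lowest array, and WT replicate 2, the highest. The highest array exceeded the lowest by 4.44-fold for Ltf, 2.14-fold for Camp, 2.13-fold for Ngp and 2.08-fold for Lcn2. These ranges were wider than those of 99.3%, 99.3%, 98.9% and 98.4% of the genes with a mean within 0.5 log2 units of each (2005, 1527, 1884 and 2021 genes). The corresponding shares for the primary genes lay between 35.3% for Mpo and 62.4% for Elane.

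**Figure D2:**
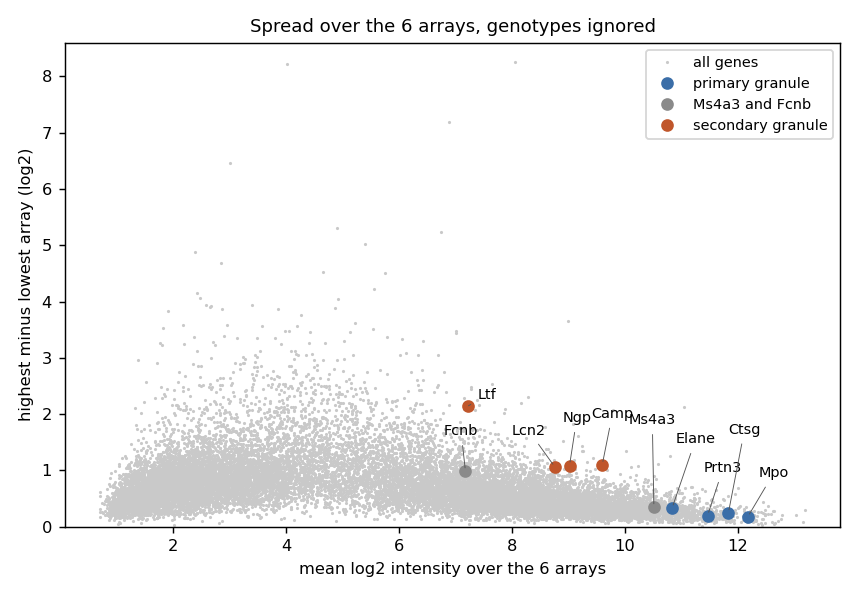
Difference between the highest and the lowest array (log2) against mean log2 intensity, for all 18193 genes in grey and the granule protein genes in colour. The 4 secondary genes lie at the upper edge of genes of like intensity, with ranges from 1.06 to 2.15, and the primary genes lie within the bulk, with ranges from 0.17 to 0.33.

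WT replicate 1 was the lowest and WT replicate 2 the highest of the 6 arrays for 4 of the 4 secondary genes. That order was found in 3.65% of all genes and in 5.16% of genes with a mean of at least 6. WT replicate 1 alone was the lowest array for 28% of the latter, so it stood low for many genes. The order was noticed after the values were seen, and genes that share a cell or an array do not vary independently, so it is given without a test. It follows from that order that the 3 Apcmin values lay inside the WT range for 4 of 4 secondary genes. They did so for 1 of 4 primary genes, for 26.8% of all genes and for 24.2% of those with a mean of at least 6. The SD was larger in WT for 4 of 4 secondary genes, which the same order favours, so it is not a separate observation. Among all genes the SD was larger in WT for 64.1%, and for 60.4% of those with a mean of at least 6. For Ltf it was 0.06 in Apcmin and 1.08 in WT, and for the other 3 it lay between 0.26 and 0.28 in Apcmin and between 0.53 and 0.57 in WT.

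Set against each other, the early and late averages lay farthest apart on WT replicates 1 and 2. Each gene was centred on its 6-array mean and averaged within its group. The primary genes averaged 0.053, -0.11 and -0.016 in Apcmin replicates 1 to 3 and 0.086, -0.041 and 0.029 in WT replicates 1 to 3. The secondary genes averaged -0.11, -0.016 and 0.13 in Apcmin and -0.75, 0.60 and 0.15 in WT. WT replicate 1 thus had the lowest late and the highest early average, and WT replicate 2 the highest late average with an early average below 0.

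Early minus late was 0.17, -0.095 and -0.14 in Apcmin and 0.83, -0.64 and -0.12 in WT. The Apcmin values all fell between those of WT replicates 1 and 2. The means were -0.025 ± 0.17 in Apcmin and 0.025 ± 0.75 in WT, a difference of -0.050. Without WT replicate 1 the difference was 0.36, and without WT replicate 2 it was -0.38. Without Apcmin replicate 3 it was 0.010, and with array weights 0.12, so the sign of the contrast was not settled by these arrays. With both left out, a choice made after seeing the data, Apcmin could be set against WT replicate 3 alone, and the difference was 0.094.

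**Figure D3:**
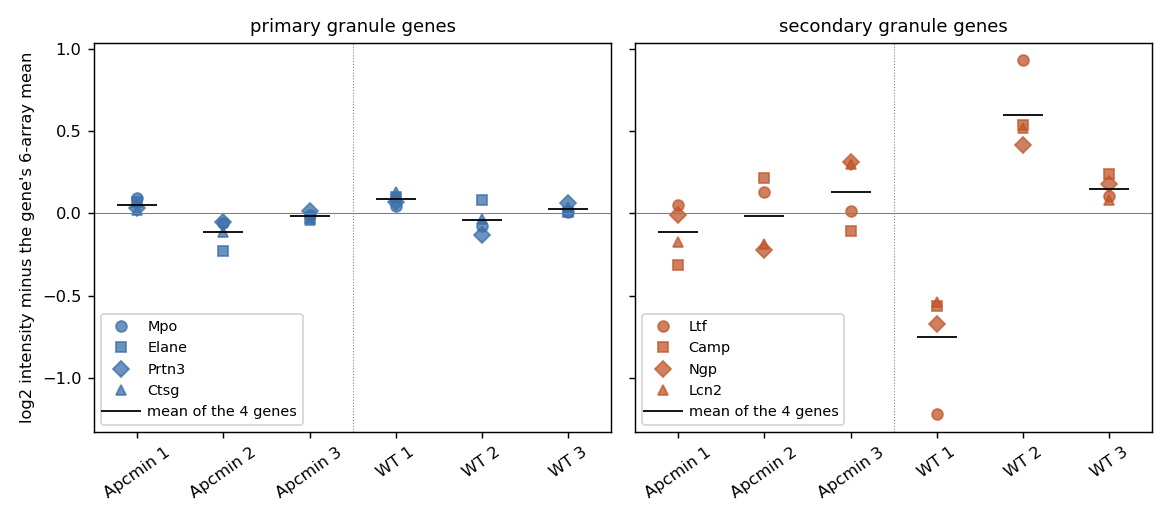
Log2 intensity minus the gene's 6-array mean for the primary genes (left) and the secondary genes (right) on each array, Apcmin left of the dotted line and WT right of it. Short bars are the mean of the 4 genes. All 4 secondary genes are lowest in WT replicate 1 and highest in WT replicate 2, with means of -0.75 and 0.60, while the primary means stay between -0.11 and 0.086.

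Between the genotypes, none of the 10 genes passed the test. In limma, with p-values adjusted by Benjamini-Hochberg over 45037 probe sets, 0 of the 10 had an adjusted p under 0.05, where 0% of all probe sets did, and the smallest adjusted p among the 10 was 0.954. At an unadjusted p under 0.05 there were 0 of the 10, where 3.81% of probe sets had one. The mean was lower in Apcmin for 7 genes and higher for 3, where it was lower for 57% of all genes and for 43.7% of those with a mean of at least 6. The groups separated for 0 of the 10, where they did for 7.73% of all genes.

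The median difference was -0.044 over the primary genes, with 1 higher and 3 lower, and 0.0087 over the secondary genes, with 2 higher and 2 lower. It was -0.036 over all genes and 0.023 over those with a mean of at least 6. Leaving out single arrays moved the secondary median to -0.38 (without WT replicate 1) and to 0.24 (without WT replicate 2), while the primary median stayed between -0.091 and -0.0055. The intervals bound what the arrays could show. For Mpo, Elane, Prtn3, Ctsg and Ms4a3 they lay within 0.5 log2 units of 0. For Ltf (difference 0.13) the interval ran from -1.05 to 1.31 and for Camp (-0.14) from -0.87 to 0.58, and those of Ngp (0.054) and Lcn2 (-0.037) were from -0.67 to 0.78 and from -0.74 to 0.66. Each of these 4 intervals spanned more than 1 log2 unit, so sizeable differences in either direction were not excluded by these arrays. The Fcnb interval, from -0.95 to 0.31, also spanned more than 1 log2 unit.

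**Figure D4:**
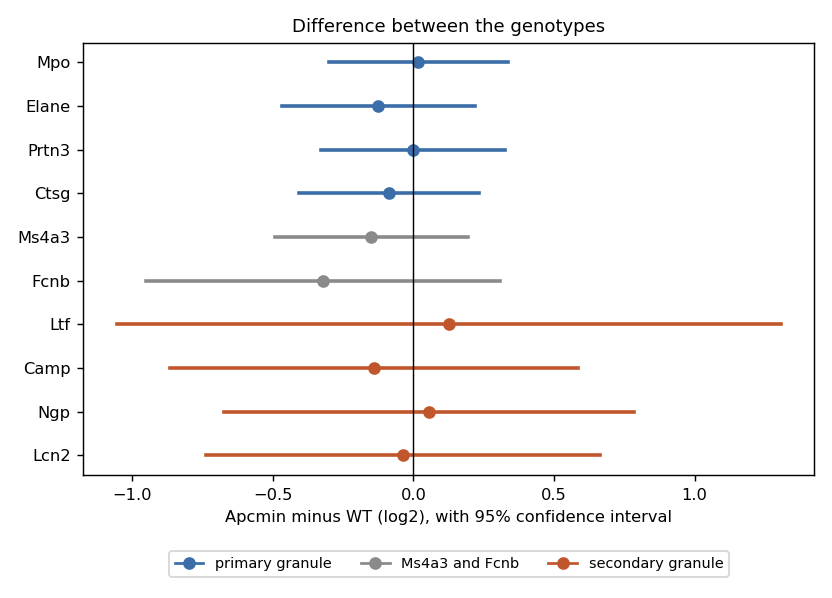
Difference between Apcmin and WT (log2, Apcmin minus WT) with its 95% confidence interval from limma, by gene. Every interval includes 0. The interval is narrowest for Mpo (-0.30 to 0.34) and widest for Ltf (-1.05 to 1.31).

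The stretch before the start of transcription was read for members of both groups because the secondary genes moved together. Elane and Prtn3 stand for the primary genes as neighbours on chromosome 10 with 0 coding genes between them. Camp, Ngp and Ltf all lie on chromosome 9, with 8 coding genes between Camp and Ngp and 20 between Ngp and Ltf. Lcn2 and Fcnb are on chromosome 2, and Fcnb is shown as a gene whose window held both of the patterns in capitals. The 250 bases before the RefSeq start (GRCm38.p6) are shown 5′ to 3′ in the direction of the gene. Capitals mark the letters GGAAGT, a core recognized by the myeloid factor PU.1, and TTNNGNAA, a pattern of C/EBP factors, on either strand.
Elane, GRCm38.p6 chr10:79886062-79886311, plus strand: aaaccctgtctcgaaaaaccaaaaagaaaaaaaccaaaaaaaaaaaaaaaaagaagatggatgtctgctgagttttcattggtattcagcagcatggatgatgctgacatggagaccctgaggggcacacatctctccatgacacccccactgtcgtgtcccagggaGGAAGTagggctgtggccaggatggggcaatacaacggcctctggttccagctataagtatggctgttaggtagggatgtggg
Prtn3, GRCm38.p6 chr10:79879417-79879666, plus strand: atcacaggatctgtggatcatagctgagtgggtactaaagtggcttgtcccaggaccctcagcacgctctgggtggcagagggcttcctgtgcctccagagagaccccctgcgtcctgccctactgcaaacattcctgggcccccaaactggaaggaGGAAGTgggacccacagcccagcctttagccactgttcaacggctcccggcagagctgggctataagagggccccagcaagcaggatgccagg
Fcnb, GRCm38.p6 chr2:28084879-28085128, minus strand: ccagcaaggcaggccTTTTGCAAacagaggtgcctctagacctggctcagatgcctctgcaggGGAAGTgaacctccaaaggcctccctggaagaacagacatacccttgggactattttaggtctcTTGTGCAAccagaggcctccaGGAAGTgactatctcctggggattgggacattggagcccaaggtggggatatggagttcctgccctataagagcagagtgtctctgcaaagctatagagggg
Ltf, GRCm38.p6 chr9:111019042-111019291, plus strand: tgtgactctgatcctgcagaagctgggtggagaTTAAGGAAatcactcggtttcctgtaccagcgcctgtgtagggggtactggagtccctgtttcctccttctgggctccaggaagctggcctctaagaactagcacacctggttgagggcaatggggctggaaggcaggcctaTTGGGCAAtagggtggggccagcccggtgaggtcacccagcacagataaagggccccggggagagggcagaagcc
Camp, GRCm38.p6 chr9:109849457-109849706, minus strand: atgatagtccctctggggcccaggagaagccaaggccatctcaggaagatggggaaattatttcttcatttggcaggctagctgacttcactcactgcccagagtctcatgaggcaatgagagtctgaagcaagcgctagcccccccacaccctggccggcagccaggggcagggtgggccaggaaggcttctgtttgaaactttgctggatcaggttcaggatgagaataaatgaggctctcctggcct
Ngp, GRCm38.p6 chr9:110419558-110419807, plus strand: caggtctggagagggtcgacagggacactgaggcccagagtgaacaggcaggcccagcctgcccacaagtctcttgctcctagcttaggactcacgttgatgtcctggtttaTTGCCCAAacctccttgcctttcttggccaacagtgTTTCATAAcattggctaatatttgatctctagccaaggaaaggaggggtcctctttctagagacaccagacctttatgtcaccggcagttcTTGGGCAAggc
Lcn2, GRCm38.p6 chr2:32387740-32387989, minus strand: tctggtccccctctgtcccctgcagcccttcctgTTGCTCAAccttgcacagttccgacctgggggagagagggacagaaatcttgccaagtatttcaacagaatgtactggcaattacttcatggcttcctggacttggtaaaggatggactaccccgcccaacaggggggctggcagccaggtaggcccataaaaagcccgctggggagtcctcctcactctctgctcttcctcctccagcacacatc

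In these windows GGAAGT was found for 4 of 4 primary genes, for Ms4a3 and for Fcnb, and for 0 of 4 secondary genes, where 19.7% of 32851 windows of the same length held it. In Elane it began 83 bases and in Prtn3 93 bases before the start. TTNNGNAA was found for 3 of 4 secondary genes (Ltf, Ngp and Lcn2), for Ms4a3 and for Fcnb, and for 0 of 4 primary genes, where 36.8% of windows held it. Ltf and Ngp held the letters TTGGGCAA. In Ms4a3 the 2 patterns overlapped, and Camp held neither in this stretch. The Myb pattern AACNG was found for 9 of the 10 genes (74.2% of windows) and TATAA for Fcnb, Prtn3, Elane and Ctsg (22.8%). A match describes the letters and not a bound site. Only exact matches were searched, so a window without a match may still hold a looser form of the site. The Elane window held tggggcaa and the Camp window tgaggcaa, which depart from TTNNGNAA in a single letter. The split between the groups thus holds for these exact letters only.

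Genes listed as companions of the granule protein genes did not pass between the genotypes. Those measured were Srgn, Ctsc, Lyz2, Cst7, Serpinb1a, Slpi, Hexa, Lamp1, Plac8 and Igsf6. Of 10 measured companions, 0 passed in either direction and 0 had an unadjusted p under 0.05 (limma), where 3.81% of probe sets did. In Apcmin 4 were higher and 6 lower, with a median difference of -0.065. Among all genes 57% were lower, and 43.7% of those with a mean of at least 6. Srgn encodes serglycin, the proteoglycan that packs proteases into granules, and was at 11.83 ± 0.04 in Apcmin and 11.86 ± 0.07 in WT (SD, n = 3 each). Ctsc, the protease that activates the granule serine proteases, was at 8.38 ± 0.38 in Apcmin and 8.26 ± 0.23 in WT, and 1 of its 2 other probe sets had a difference of the opposite sign. Lyz2, lysozyme, was at 10.45 ± 0.16 in Apcmin and 10.55 ± 0.15 in WT. The WT replicate order of the secondary genes was seen for 0 of these 10. Lamp1, a lysosomal membrane protein singled out after its values were seen, was the 1 companion whose groups separated, as they did for 7.73% of all genes. It was at 10.34 ± 0.04 in Apcmin and 10.26 ± 0.05 in WT (difference 0.086, adjusted p = 0.958 in limma). Prss57, Bpi and Cd63 are not analysed here.

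Some later neutrophil genes followed the secondary genes across the WT mice. Of 17 measured, 3 had WT replicate 1 lowest and WT replicate 2 highest, namely Chil3, Cd177 and S100a9, where 3.65% of all genes did. Chil3, a chitinase-like protein of neutrophils and macrophages, was at 7.97, 7.71 and 7.82 in Apcmin replicates 1 to 3, against 7.06, 8.26 and 8.02 in WT replicates 1 to 3. It was named after its values were seen. S100a9, the larger calprotectin subunit, was at 11.88, 11.94 and 12.07 in Apcmin, against 11.68, 12.38 and 12.05 in WT.

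Its partner S100a8 varied little, from 11.30 to 11.37 in Apcmin and from 11.26 to 11.49 in WT. Cd177, a surface glycoprotein of neutrophils, was at 4.89, 3.87 and 5.24 in Apcmin, against 3.49, 5.44 and 4.94 in WT, with WT replicates 1 and 2 at the ends. The gelatinase gene Mmp9 and the collagenase gene Mmp8 were dim, with means of 3.97 and 3.18 over the arrays. Both were highest in WT replicate 2 (5.53 and 4.69) but lowest in Apcmin replicate 3 (2.06 and 2.41). Neither thus had the WT replicate order, and in Apcmin replicate 1 they were at 5.28 and 3.92. Between genotypes, 0 of the 17 passed and 0 had an unadjusted p under 0.05, with 4 higher and 13 lower, where 57% of all genes were lower, and a median of -0.19. Over the 9 with a mean of at least 6 the median was -0.071, with 7 lower, where 43.7% of all genes with such a mean were lower. Without WT replicate 2 the median of all 17 was -0.033, with 10 lower. Retnlg and Mmp25 are not analysed here.

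**Figure D5:**
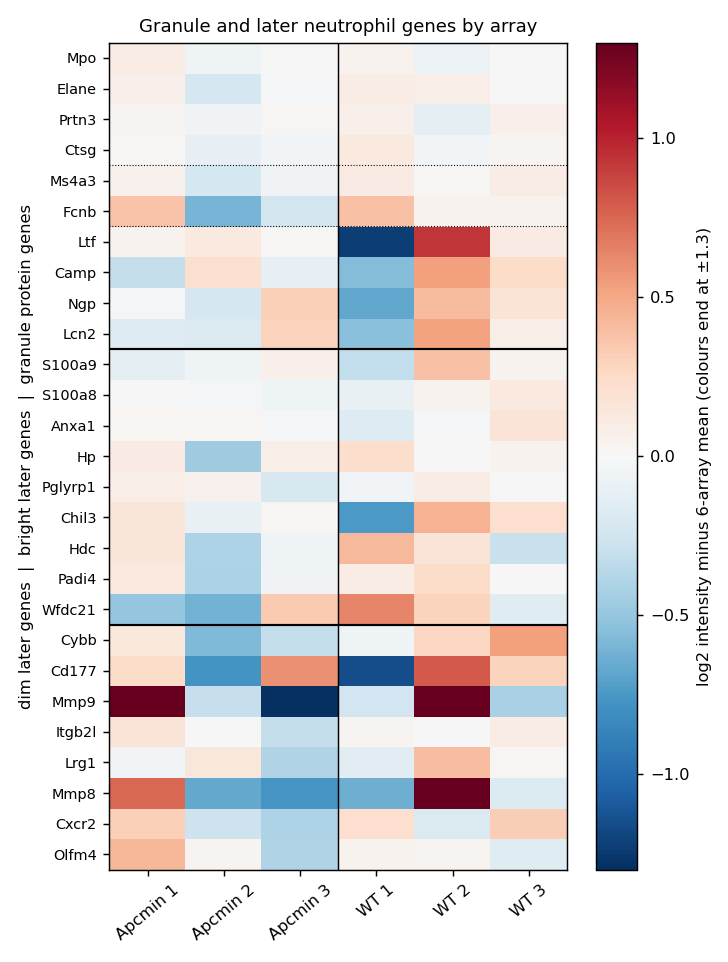
Log2 intensity minus the 6-array mean by array, Apcmin columns left and WT columns right of the line, for the granule protein genes (top), later neutrophil genes with a mean of at least 6 (middle) and dimmer ones (bottom). Red is above and blue below the gene's mean, and colours end at 1.3 in each direction. The blue WT replicate 1 and red WT replicate 2 cells of Ltf, Camp, Ngp and Lcn2 recur for Chil3, S100a9 and Cd177 and not for Hp, Hdc or Wfdc21.

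The summed markers of mature neutrophils, a sum carried largely by S100a8 and S100a9, were lowest and highest on the same WT arrays. Summed over the 7 measured of 8 markers, linear intensity was between 6666 and 7096 in Apcmin and between 5932 and 8328 in WT, with the lowest sum in WT replicate 1 and the highest in WT replicate 2. Of the 7 genes, S100a9 and Cd177 had that order themselves. S100a8, S100a9 and Csf3r had a mean of at least 6, Cd177 was at 4.65, and the defining markers Cxcr2, Mmp8 and Mmp9 were under 4, below the array medians of 4.12 to 4.18. WT replicate 1 also stood apart for some other lists, though its erythroid and megakaryocyte sums lay inside the range of the other arrays. Erythroid sums were lowest in WT replicate 3 (1280) and Apcmin replicate 2 (1344), against 2704 in WT replicate 1. That sum was carried largely by Car1, which was highest in Apcmin replicate 3 (11.34). By gene, Klf1 (9.25) and Epor (6.71) were highest in WT replicate 1, while Car1 and the dim Slc4a1 and Alas2 were not. The monocyte and macrophage marker sum of WT replicate 1 was 2345, against 1515 to 1787 in Apcmin and 1547 and 1682 in the other WT arrays. Its mast cell and basophil sum was 162, against 291 to 362 in Apcmin and 289 and 385 in the other WT arrays, and its LKS+ marker sum, 7122, was the lowest of the 6. The part of other cell types in the spread of the secondary genes was not tested.

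None of the regulators of granulocyte development passed between the genotypes. Of 14 measured, 0 passed and 0 had an unadjusted p under 0.05 in limma, where 3.81% of probe sets did. The mean was higher for 6 and lower for 8, where 57% of all genes were lower, and the median difference was -0.041. Cebpa, required for granulocyte and monocyte progenitors, was at 10.54 ± 0.07 in Apcmin and 10.56 ± 0.10 in WT. Spi1, the gene for PU.1, was at 7.36 ± 0.01 in Apcmin and 7.43 ± 0.05 in WT, and its Apcmin values all lay below the WT values, as for 4.76% of all genes (difference -0.065, adjusted p = 0.966 in limma).

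Gfi1, a repressor needed for neutrophil maturation, was at 8.88 ± 0.27 in Apcmin and 8.83 ± 0.23 in WT. Myb was at 11.84 ± 0.08 in Apcmin and 11.82 ± 0.09 in WT (difference 0.020). Its other probe sets had larger differences, 0.21 and 0.23, each with an adjusted p of 0.954 in limma. Csf3r, the receptor for granulocyte colony-stimulating factor, was at 7.71 ± 0.22 in Apcmin and 7.57 ± 0.22 in WT. The WT replicate order of the secondary genes was shared by 1 of the 14, Klf5, where 3.65% of all genes had it. Klf5, which was named after its values were seen, was dim (mean 4.03), and its other probe sets did not have that order. Cebpe, the gene for C/EBP-epsilon, is not analysed here.

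The genes closest in pattern to each group were chosen by that likeness, so their sharing of it is no finding. Likeness was the root mean square difference from the group's centred average over the 6 arrays. For the primary genes, whose average ranged over only 0.20, the nearest of 8377 eligible genes were Clcc1, Hyou1, Ppp1r12a, Armt1 and Aebp2, at 0.021 to 0.026. For the secondary genes, a list added after the data were seen, the nearest of 2243 were Prdm2, Fgf3, Mcoln1, Slc16a7 and Cep95, at 0.087 to 0.137. Prdm2 deviated by -0.72 in WT replicate 1 and by 0.55 in WT replicate 2, against -0.75 and 0.60 for the secondary average.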

How the data were processed

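RNA from sorted LKS+ cells, at least 20000 per mouse per the labels' protocols, was amplified with the Nugen Ovation system and hybridized to Affymetrix Mouse Genome 430 2.0 arrays (Apcmin n = 3, WT n = 3). The authors deposited 1 normalized linear intensity per probe set and array. The submitters' processing notes list RMA without a version or settings. All deposited values were positive, so log2 was taken with no pseudocount. Control probe sets (64 of 45101) were left out. A gene was represented by its brightest probe set with exactly 1 symbol (34945 probe sets, 18193 genes), named from the platform annotation and matched by Entrez identifier to RefSeq GRCm38.p6 (34741 matched, 0 changed). Genotypes were compared with limma 3.58.1 in R 4.3.3 (lmFit, eBayes, genotype as the only term), and the step was tested on simulated data. Scores over members were not tested. Genes named besides the members were set by name, apart from those said to be chosen after their values were seen and the nearest in pattern. The members and lists were chosen with earlier results of these data known. Alternatives were 2 further scalings, a filter at a mean log2 of 6, a floor at 4, other probe set rules, a mean-variance trend, array weights, the replicate number as a block and each array left out. Replicates were not paired in the main fit. Same-numbered mice did not deviate together, but that check cannot exclude that the numbers mark pairs. As no label names the animals, p-values (adjusted by Benjamini-Hochberg, threshold 0.05) measure only the spread between these arrays. The number of arrays limits the precision.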

Additional observations from a re-analysis of the deposited data

How the results depend on the processing

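No probe set had an adjusted p under 0.05 in limma under any alternative run, and none of the 10 genes did. The number with an unadjusted p under 0.05 was 1714 of 45037 probe sets, 2717 with array weights, 911 with the floor at 4, 5864 without WT replicate 3, 695 of 18193 genes with the mean of all probe sets, and 486 of 15155 with the filter at 6. With the replicate number as a block it was 1398, with 0 past the threshold. Same-numbered mice correlated at -0.047, -0.073 and -0.23 in their deviations, and different-numbered mice at -0.093 to 0.17, so no pairing by number was seen. Deviations of 3 arrays sum to 0 within a genotype, so this check cannot exclude that the numbers mark pairs. Differences near 0 changed sign under some settings, and the cause was not tested. Prtn3 was at 0.0021 with arrays centred on their median and 0.039 with array weights, which also gave -0.15 for Ltf and -0.045 for Ngp. Without both WT replicates 1 and 2, Ltf was at -0.039 and Ngp at -0.15. Leaving out each array in turn gave -0.024 to 0.050 for Mpo, -0.067 to 0.032 for Prtn3, -0.45 to 0.62 for Ltf, -0.46 to 0.092 for Camp, -0.27 to 0.28 for Ngp and -0.32 to 0.21 for Lcn2. Elane, Ctsg, Ms4a3 and Fcnb kept a negative difference in each alternative run. With Fcnb and Ms4a3 counted among the early genes, the early minus late difference was -0.11, and with Fcnb among the late genes 0.014. With array weights that difference was 0.12 and the secondary median -0.15, each less than 1 SD between arrays from its value above. Leaving out each array gave medians of -0.089 to -0.0095 for the granule companions and -0.23 to -0.033 for the later neutrophil genes. For the regulators they were -0.074 to 0.029. All were within 1 SD between arrays of the main value. With 3 arrays per genotype, leaving out 1 can hardly move a value by more, so that closeness does not show stability.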
